A study of Homo sapiens with 9 samples.

Results

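The plasminogen activator system was followed in IMR90 ER:RAS cells as they entered oncogene-induced senescence and when ARID1B was knocked down. The genes came from a list of 5, namely PLAU and PLAT, which encode the activators, PLAUR, which encodes the urokinase receptor, and SERPINE2 and SERPINB2, which encode inhibitors. A gene was measured where a probe set carried its symbol and no other. This gave 4 of the 5, each with 1 probe set, among 18417 genes measured in all. SERPINB2 was not analysed here.

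Plasminogen activators are secreted serine proteases that cut the inactive precursor plasminogen into plasmin, which dissolves fibrin and cleaves matrix proteins and latent growth factors. Urokinase acts mostly at the cell surface, held there by its receptor, whereas the tissue-type activator acts mostly on fibrin. Serpins trap such proteases irreversibly, and senescent fibroblasts are known to release both activators and serpins with the rest of their secretome.

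IMR90 is a human lung fibroblast line, spelled IRM90 in the labels. ER:RAS is an oncogenic RAS joined to the hormone-binding part of the estrogen receptor, so that 4-hydroxytamoxifen (4OHT) turns it on, and the cells of all groups carried it. There were 3 groups of 3 arrays each. Cells with an empty vector and no 4OHT (vector-4OHT) were the nonsenescent group. Cells with the empty vector and 100 nM 4OHT (vector+4OHT) were the senescent group, and cells with a short hairpin RNA against ARID1B and 100 nM 4OHT (shARID1B+4OHT) were the knockdown group. The labels give 7 days of growth and put all groups at 6 days after 4OHT. No group had a control hairpin, shARID1B without 4OHT, or 4OHT without ER:RAS. The drug and RAS therefore cannot be told apart, nor can hairpin expression as such and ARID1B loss. The study describes the replicates as biological. The labels do not say how many hairpins were used or whether replicates were separate cultures, so p-values cover no more than the spread among these arrays.

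All values are log2 expression, normalized between arrays by the authors, and were compared within a probe set only. The median over all probe sets lay between 6.70 and 6.79 on each array, and 6.75 was the median of the whole table. All 10 fibroblast markers lay above 6.75 in each group. In vector+4OHT against vector-4OHT cells 9 of the 10 were lower at an adjusted p under 0.05 by limma, beside 17.6% of all genes. The mean of the 10 on an array ran from 11.01 to 11.12 in vector-4OHT cells, from 10.60 to 10.69 in vector+4OHT cells, and from 10.70 to 10.75 in shARID1B+4OHT cells. Epithelial marker means were also lower in vector+4OHT cells (6.75 to 6.84) than in vector-4OHT cells (6.94 to 6.97) or shARID1B+4OHT cells (6.92 to 7.00). Of the 8 measured, KRT19 changed most from vector-4OHT to vector+4OHT cells, by -1.10 on the log2 scale. The median log2 change of the 8 was -0.05. Leukocyte marker means lay between 6.35 and 6.51, and endothelial marker means between 5.92 and 6.09. The part of these markers in the changes of PLAU, PLAT, PLAUR and SERPINE2 was not tested. In such bulk samples, fewer cells of a kind and less RNA per cell cannot be told apart.

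The target of the hairpin was checked first. ARID1B, which helps the SWI/SNF remodeling complex bind chromatin, was at 8.93, 8.85 and 8.94 in vector-4OHT cells, 8.63, 8.96 and 8.77 in vector+4OHT cells, and 8.07, 7.96 and 8.13 in shARID1B+4OHT cells. The knockdown arrays lay below all others. Against vector+4OHT cells the ARID1B level was 39.9% lower, a log2 change of -0.73 (limma, adjusted p = 0.000179).

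To ask how the system changes in senescence and whether it depends on ARID1B, 3 comparisons were made. A change upon senescence means vector+4OHT against vector-4OHT cells, where senescence cannot be told apart from 4OHT and RAS activity. The paper reports that depleting ARID1B blunted senescence in these cells, with more proliferation and fewer cells positive for senescence-associated β-galactosidase. From its expression profiling it also reports a significantly lower oncogene-induced senescence signature in knockdown than in vector cells, both given 4OHT. It further reports that key senescence effectors were lower as mRNA and as protein. Whether the levels below follow senescence or RAS activity was not tested. All 4 measured genes were higher in vector+4OHT than in vector-4OHT cells, PLAU 2.19-fold, PLAT 2.10-fold, PLAUR 1.75-fold and SERPINE2 1.55-fold. Of the 18417 genes, 14.9% were called higher in that comparison and 17.6% lower, 32.6% together, a gene being called at an adjusted p under 0.05. Between shARID1B+4OHT and vector+4OHT cells 0 of the 4 genes passed the test by limma as fitted here, at an adjusted or an unadjusted p under 0.05, where 15.7% of all genes were called (9.63% higher, 6.09% lower). PLAT alone passed under other tests, namely limma with an intensity trend and the methods' t-test without adjustment. Between shARID1B+4OHT and vector-4OHT cells all 4 were higher, where 31.5% of all genes were called (15.6% higher, 15.9% lower). The median log2 change of the 4 genes was 0.94, 0.04 and 0.98 in the 3 comparisons, beside -0.01, -0.02 and -0.03 over all genes. Senescent and knockdown cells were set against the same vector-4OHT arrays, so these comparisons are not independent.

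**Figure D1:**
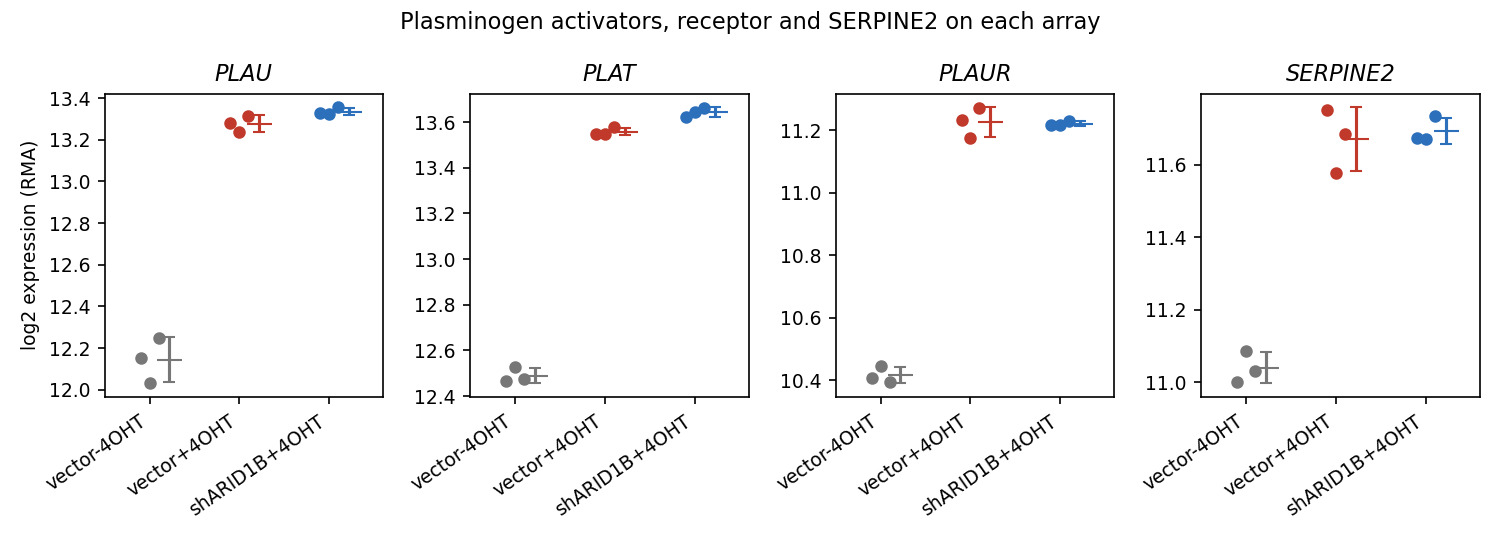
Log2 expression of PLAU, PLAT, PLAUR and SERPINE2 (y axis, with its own range for each gene) on the 3 arrays of each group (x axis). Points are arrays, the bars beside them are the mean ± SD (n = 3), and for each gene all arrays with 4OHT lie above all arrays without it.

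PLAU encodes urokinase (uPA), the activator that works at the cell surface. It was at 12.15, 12.03 and 12.25 in vector-4OHT cells, 13.28, 13.24 and 13.32 in vector+4OHT cells, and 13.33, 13.32 and 13.36 in shARID1B+4OHT cells. Every array with 4OHT stood more than any spread between replicates above those without, and the knockdown arrays lay just above the vector+4OHT arrays with no overlap. The mean rose from 12.14 ± 0.11 to 13.28 ± 0.04 (SD, n = 3) upon senescence. This is a log2 change of 1.13 with a 95% confidence interval of 1.0 to 1.26 (limma, adjusted p = 1.42e-07), which placed PLAU at rank 190 of the 18417 genes from the largest rise. In knockdown cells the mean was 13.34 ± 0.02 (SD, n = 3), and the log2 difference from vector+4OHT cells was 0.06 (95% confidence interval -0.07 to 0.19, adjusted p = 0.561). The interval allows a level from 4.90% lower to 14.0% higher. Such separation was common, as 32.5% of all genes had groups that did not overlap in the knockdown comparison (40.1% in the senescence comparison and 45.9% for knockdown against vector-4OHT cells).

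PLAT encodes the tissue-type activator (tPA), which acts on fibrin-bound plasminogen. It was at 12.47, 12.53 and 12.47 in vector-4OHT cells, 13.55, 13.55 and 13.58 in vector+4OHT cells, and 13.62, 13.65 and 13.66 in shARID1B+4OHT cells. Its arrays formed 3 steps with no overlap, of which only the one between vector-4OHT cells and the others was called. The mean rose from 12.49 ± 0.03 to 13.56 ± 0.02 (SD, n = 3), a log2 change of 1.07 with an interval of 0.97 to 1.17 (limma, adjusted p = 2.62e-08) and rank 218 of 18417. The knockdown cells, at 13.64 ± 0.02 (SD, n = 3), differed from vector+4OHT cells by 0.09 (interval -0.01 to 0.18, adjusted p = 0.248). This call depended on the test: with an intensity trend in limma the same difference had an adjusted p of 0.0452. Over the alternatives that gave an adjusted p, it ranged from 0.0452 to 0.455. The table's highest value lay 0.56 above the highest PLAT array and 0.87 above the highest PLAU array on the log2 scale, and whether the arrays compress differences this close to their upper end was not tested.

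PLAUR encodes uPAR, the membrane-anchored receptor that holds urokinase at the cell surface. Its values were 10.41, 10.45 and 10.40 in vector-4OHT cells, 11.23, 11.17 and 11.27 in vector+4OHT cells, and 11.22, 11.22 and 11.23 in shARID1B+4OHT cells. The vector-4OHT arrays stood apart below the rest, and the knockdown arrays fell inside the range of the vector+4OHT arrays. Upon senescence the mean rose from 10.42 ± 0.03 to 11.23 ± 0.05 (SD, n = 3), by 0.81 on the log2 scale (interval 0.71 to 0.91, limma, adjusted p = 2.77e-07, rank 363 of 18417). Between knockdown and vector+4OHT cells the log2 difference was -0.0042 (interval -0.11 to 0.10, adjusted p = 0.965), which allows a level from 7.14% lower to 7.07% higher. The sign of this small difference turned to 0.02 when array medians were subtracted.

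SERPINE2 encodes protease nexin-1, a serpin that inhibits urokinase, the tissue-type activator, plasmin and thrombin. It was at 11.00, 11.09 and 11.03 in vector-4OHT cells, 11.75, 11.58 and 11.68 in vector+4OHT cells, and 11.68, 11.67 and 11.74 in shARID1B+4OHT cells. As for PLAUR, the 2 groups with 4OHT overlapped and both lay above the vector-4OHT arrays. The mean rose from 11.04 ± 0.04 to 11.67 ± 0.09 (SD, n = 3), a log2 change of 0.63 (interval 0.51 to 0.75, limma, adjusted p = 7.51e-06, rank 555 of 18417). This was the smallest rise of the 4 genes, and the 4 changes were not tested against each other. The knockdown cells, at 11.69 ± 0.04 (SD, n = 3), differed by 0.02 (interval -0.10 to 0.15, adjusted p = 0.826), which allows a level from 6.75% lower to 10.7% higher.

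Set against vector-4OHT cells, the knockdown cells had PLAU 2.28-fold higher (95% confidence interval 2.09 to 2.50, adjusted p = 7.9e-08), PLAT 2.22-fold higher (2.08 to 2.38, adjusted p = 1.26e-08), PLAUR 1.75-fold higher (1.63 to 1.88, adjusted p = 2.68e-07) and SERPINE2 1.57-fold higher (1.44 to 1.71, adjusted p = 5.86e-06), all by limma. For each of the 4 genes the order of the groups was therefore vector-4OHT lowest, with vector+4OHT and shARID1B+4OHT as neighbors that were not told apart by the test.

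**Figure D2:**
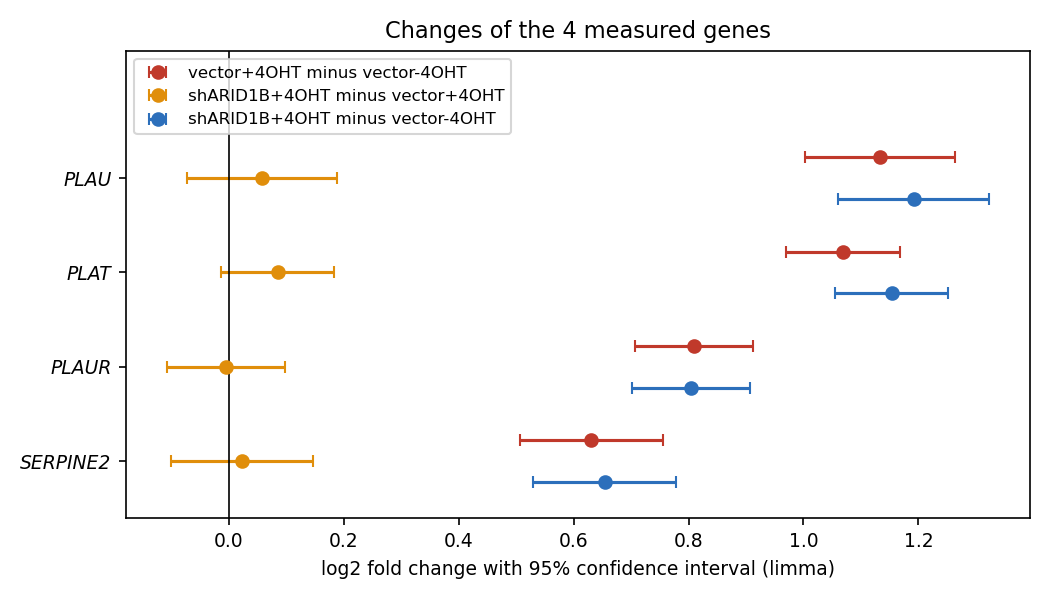
Log2 fold change (x axis) of the 4 genes (y axis) in the 3 comparisons, with 95% confidence intervals from limma. The intervals of the knockdown comparison cross 0 for each gene, while those of both comparisons with vector-4OHT cells lie wholly above 0.

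Because these genes moved together, the sequence before their start sites is shown for the receptor, one activator and the serpin. Each is the 250 bases before a RefSeq start site of assembly GRCh38.p14, written 5′ to 3′ on the gene's strand, with matches to the searched motifs on either strand in capitals. The motifs were AP-1 (TGANTCA), the NF-kB consensus, the TATA box (TATAAA), the GC box (GGGCGG) and the ETS core (GGAAGT). Positions are counted back from the start site. The PLAUR window, chr19:43670170-43670419 on the minus strand, holds 1 AP-1 match from position -186 and 1 ETS match from position -133.
PLAUR: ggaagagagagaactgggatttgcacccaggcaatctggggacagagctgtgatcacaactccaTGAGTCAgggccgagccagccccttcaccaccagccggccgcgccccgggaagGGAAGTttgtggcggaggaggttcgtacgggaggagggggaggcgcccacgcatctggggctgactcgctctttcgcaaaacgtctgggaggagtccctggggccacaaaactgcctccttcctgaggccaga
The PLAU window, chr10:73910882-73911131 on the plus strand, lies before the second of 2 listed start sites and holds 3 GC boxes and 0 matches to the other motifs.
PLAU: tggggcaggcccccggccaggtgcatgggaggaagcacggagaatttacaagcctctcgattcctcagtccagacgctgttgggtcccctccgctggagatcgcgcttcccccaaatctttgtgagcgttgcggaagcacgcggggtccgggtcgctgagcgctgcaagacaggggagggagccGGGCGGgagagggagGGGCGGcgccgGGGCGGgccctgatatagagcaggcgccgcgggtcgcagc
The SERPINE2 window, chr2:224038641-224038890 on the minus strand, is one of 2 listed for the gene and holds 2 GC boxes and 0 matches to the other motifs, while the other window, chr2:224031479-224031728, holds 1 GC box and 0 other matches.
SERPINE2: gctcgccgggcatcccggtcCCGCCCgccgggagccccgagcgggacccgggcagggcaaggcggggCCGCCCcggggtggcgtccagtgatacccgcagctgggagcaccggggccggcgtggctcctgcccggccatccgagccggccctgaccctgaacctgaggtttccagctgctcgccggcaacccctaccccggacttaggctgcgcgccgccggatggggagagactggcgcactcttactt
Of 34943 windows of 250 bases before RefSeq start sites, 6.59% hold the AP-1 motif, 5.05% the NF-kB motif, 10.8% the TATA box, 42.5% the GC box and 19.5% the ETS motif. The other PLAU window, chr10:73910360-73910609, holds 0 matches to any of them. No searched motif was present in all 3 windows shown, and a match is a string of letters and not a measured binding site.

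The factors named for such motifs were measured on the same arrays. AP-1 and ETS proteins are transcription factors that act downstream of RAS signaling, and 19 of them were listed and measured. In vector+4OHT against vector-4OHT cells 11 were called higher and 2 lower (14.9% and 17.6% of all genes), with a median log2 change of 0.27. JUNB, an AP-1 subunit, was at 8.97, 9.01 and 8.94 without 4OHT, 10.02, 10.02 and 10.04 in vector+4OHT cells, and 10.14, 10.19 and 10.12 in knockdown cells. It rose by 1.05 upon senescence (limma, adjusted p = 3.33e-08) and differed by 0.12 upon knockdown (adjusted p = 0.103), the arrays of the 3 groups forming steps like those of PLAT. ETV4, an ETS factor of the PEA3 group, rose by 1.06 (adjusted p = 1.15e-05) and ETS2 by 0.62 (adjusted p = 1.75e-06), and both had knockdown differences under 0.1 (0.09 and 0.01, adjusted p = 0.603 and 0.87). FOSL2, which encodes the AP-1 subunit FRA2, fell by 0.68 upon senescence (adjusted p = 2.49e-05).

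Upon knockdown 3 of the 19 factors were called higher and 1 lower (9.63% and 6.09% of all genes), with a median log2 change of 0.01. ETV1, another PEA3 member, was at 9.97, 10.13 and 10.13 in vector+4OHT cells and 10.89, 10.91 and 10.88 in shARID1B+4OHT cells, higher by 0.82 (limma, adjusted p = 1.29e-05). ETS1 was at 9.93, 10.04 and 10.09 in vector+4OHT cells and 9.39, 9.40 and 9.43 in shARID1B+4OHT cells, and fell by 0.61 (adjusted p = 9.96e-05). It had risen by 0.54 upon senescence, and knockdown cells, at 9.41 ± 0.02, differed from the vector-4OHT mean of 9.48 ± 0.10 (SD, n = 3) by -0.07 (adjusted p = 0.43). FOS was higher by 0.33 (adjusted p = 0.00894), but not by the methods' t-test after adjustment (adjusted p = 0.0703). The call of ELF1, higher by 0.21 (adjusted p = 0.047), was lost without any of 7 of the 9 arrays left out in turn, among them all 6 arrays compared (adjusted p up to 0.145), and with the replicate number as a block (adjusted p = 0.0711).

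**Figure D3:**
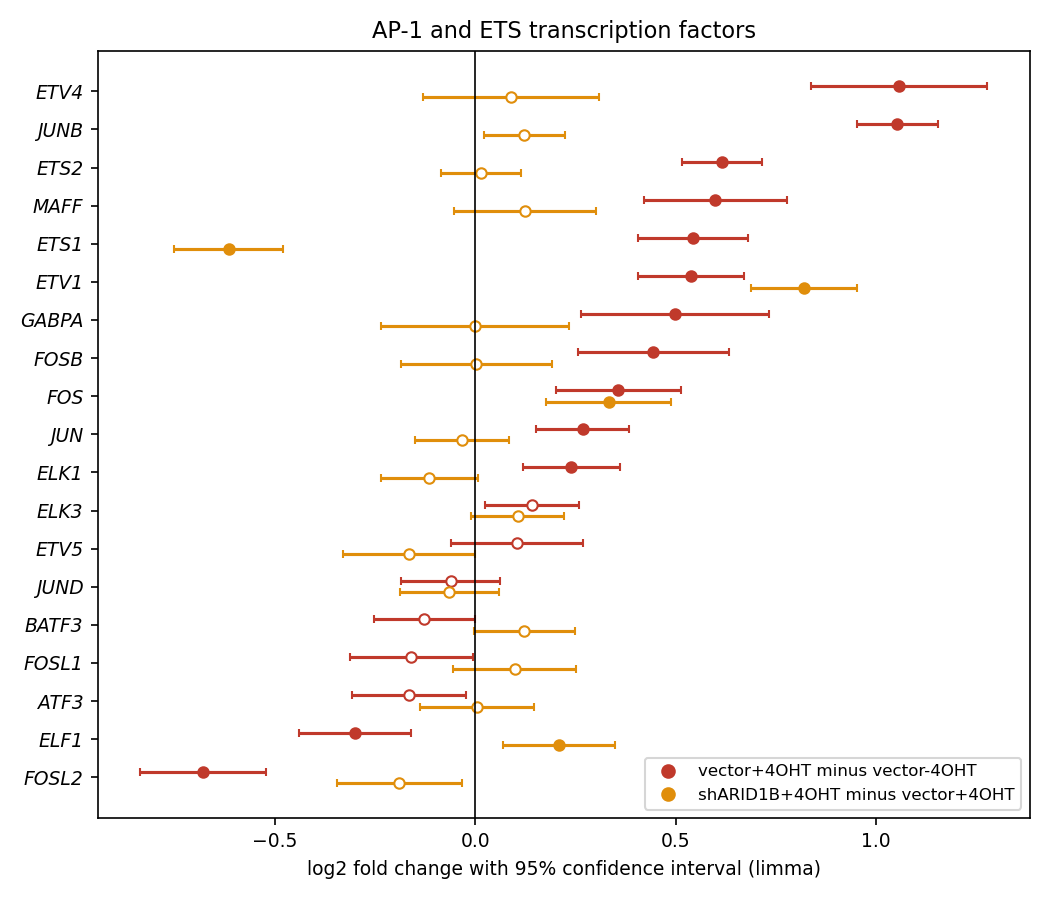
Log2 fold change (x axis) of 19 AP-1 and ETS factors (y axis) upon senescence (red) and upon ARID1B knockdown in 4OHT-treated cells (orange), with 95% confidence intervals and filled points where the adjusted p is under 0.05. JUNB and ETV4 lead the rises upon senescence, and ETS1 and ETV1 part upon knockdown.

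The genes around plasmin itself changed less uniformly, but most of them were dim. The 8 listed encode plasminogen and proteins linked to it or to plasmin. Only 2, TFPI2 and SERPING1, lay above the table's median in any group. PLAU, PLAT, PLAUR and SERPINE2 all lay above it, so the 2 sets also differ in signal. Of the 8, 2 were called higher and 1 lower upon senescence (14.9% and 17.6% of all genes), and the median log2 change was -0.0013. PLG, which encodes plasminogen and is made chiefly by the liver, was at 4.51 to 5.19 in vector-4OHT cells, 4.83 to 4.97 in vector+4OHT cells and 4.46 to 4.86 in shARID1B+4OHT cells, below the table's median on all arrays. TFPI2, an inhibitor of plasmin and other serine proteases in the matrix, was at 10.10, 10.07 and 10.17 in vector-4OHT cells, 12.76, 12.72 and 12.74 in vector+4OHT cells and 12.62, 12.66 and 12.59 in shARID1B+4OHT cells. It rose 6.18-fold upon senescence (limma, adjusted p = 4.22e-11), more than PLAU, PLAT, PLAUR or SERPINE2 by its point value. Upon knockdown it differed by -0.11 (adjusted p = 0.151). As for PLAT, that difference passed with an intensity trend in limma (adjusted p = 0.0476) and by the methods' t-test without adjustment. SERPING1, the C1 inhibitor, fell by 0.82 upon senescence (adjusted p = 9.13e-06). Upon knockdown 1 of the 8 was called by limma as fitted here, beside 15.7% of all genes. That call was SERPING1, higher by 0.27 (adjusted p = 0.0342). It was lost without replicate 1 or 2 of either group (adjusted p up to 0.138) and by the methods' t-test after adjustment. The other gene called higher upon senescence, A2M, which encodes alpha-2-macroglobulin, differed by 0.21, and its call was lost without any of 4 arrays, vector-4OHT replicates 1 and 3 and vector+4OHT replicates 2 and 3 (adjusted p up to 0.0932), with the replicate block (adjusted p = 0.0534) and by the methods' t-test after adjustment.

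Receptors that bind plasminogen or clear activator complexes were measured for 10 of 11 listed genes. Of these, 2 were higher and 2 lower upon senescence (14.9% and 17.6% of all genes). S100A10, a plasminogen-binding protein at the cell surface, fell by 0.37 (limma, adjusted p = 0.000299), while its partner ANXA2 differed by 0.03 (adjusted p = 0.706). LRP1, the main receptor for taking up activator-inhibitor complexes, differed by -0.01 (adjusted p = 0.922), and LRPAP1, its chaperone, rose by 0.21 (adjusted p = 0.00581). Upon knockdown ANXA2 differed by -0.16 (adjusted p = 0.0545) and was not called. That difference passed with an intensity trend in limma (adjusted p = 0.00839) and with dim genes left out (adjusted p = 0.0329). It also passed by the methods' t-test without adjustment. SORL1, a sorting receptor that also binds such complexes, was at 7.99, 7.88 and 7.97 in vector-4OHT cells, 6.78, 6.89 and 6.96 in vector+4OHT cells and 7.42, 7.45 and 7.50 in shARID1B+4OHT cells. It fell by 1.07 upon senescence (adjusted p = 2.23e-07) and was 0.58 higher in knockdown than in vector+4OHT cells (adjusted p = 0.000117), so that its 3 groups did not overlap. VLDLR, another such receptor, was called higher in both comparisons by 0.17 and 0.20, and each call was lost without any of 4 single arrays: upon senescence vector-4OHT replicates 1 and 2 and vector+4OHT replicates 2 and 3 (adjusted p up to 0.106), and upon knockdown vector+4OHT replicate 1 and each shARID1B+4OHT replicate (adjusted p up to 0.103). Both calls were also lost with an intensity trend and by the methods' t-test after adjustment, and the first on the 6 arrays alone.

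Among 11 genes for proteins that work with uPAR, such as vitronectin-binding integrins, 4 were higher and 2 lower upon senescence (14.9% and 17.6% of all genes). ITGB3, the beta3 integrin chain, was at 8.79, 8.99 and 9.09 in vector-4OHT cells, 10.00, 10.10 and 10.10 in vector+4OHT cells and 10.54, 10.59 and 10.51 in shARID1B+4OHT cells, a further step up in knockdown cells. It rose by 1.11 upon senescence (limma, adjusted p = 7.64e-07) and by another 0.48 upon knockdown (adjusted p = 0.00145). ITGA5, the fibronectin receptor alpha chain, rose by 0.43 (adjusted p = 0.000129) and differed by -0.09 upon knockdown (adjusted p = 0.336). EGFR, a growth factor receptor through which uPAR is known to signal, rose by 0.49 upon senescence (adjusted p = 0.000471) and fell by 0.36 upon knockdown (adjusted p = 0.00908), a call lost by the methods' t-test after adjustment (adjusted p = 0.117). CAV1, a caveolar protein, fell by 0.34 upon senescence (adjusted p = 0.000201). Its knockdown difference of 0.18 (adjusted p = 0.0238) was lost without vector+4OHT replicate 1 or any shARID1B+4OHT replicate (adjusted p up to 0.0878), and that of the integrin chain ITGAV, 0.22 (adjusted p = 0.0311), also without vector+4OHT replicate 2 (adjusted p up to 0.129). With the replicate number as a block the adjusted p was 0.0593 for CAV1 and 0.0654 for ITGAV, and ITGAV also missed the threshold on the 6 arrays alone and by the methods' t-test after adjustment.

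**Figure D4:**
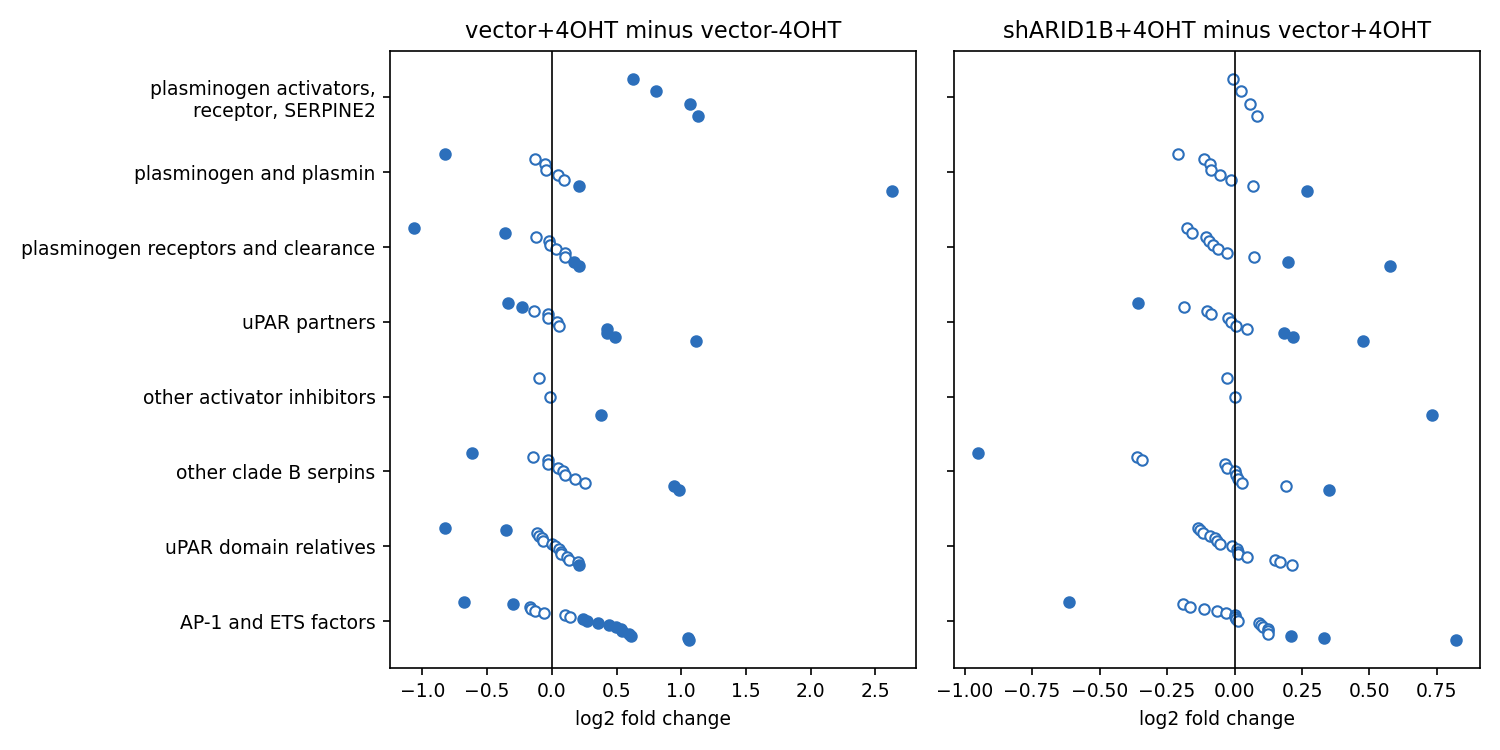
Log2 fold change (x axis) of each measured gene in the plasminogen activator system and related lists (y axis), upon senescence (left) and upon ARID1B knockdown (right), with filled points where the limma adjusted p is under 0.05 and a different x range in each panel. PLAU, PLAT, PLAUR and SERPINE2 are all filled and to the right on the left panel, and all open and near 0 on the right panel. The other lists have members on both sides.

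Serpins other than SERPINE2 varied in pattern. Of the other serpins listed as activator inhibitors 3 of 5 were measured. Among these 3, 1 was called upon senescence and 1 upon knockdown (32.6% and 15.7% of all genes). SERPINI1 encodes neuroserpin, an inhibitor of the tissue-type activator. It was at 6.66, 6.55 and 6.43 in vector-4OHT cells, 6.94, 6.88 and 6.96 in vector+4OHT cells and 7.67, 7.67 and 7.64 in shARID1B+4OHT cells, a stepwise rise without overlap. The increase was 0.38 upon senescence (limma, adjusted p = 0.000561) and 0.73 upon knockdown (adjusted p = 3.01e-05). Of the clade B serpins, the intracellular branch to which SERPINB2 belongs, 11 of the 12 others listed were measured. Among them 2 were higher and 1 lower upon senescence (14.9% and 17.6% of all genes).

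SERPINB8 was at 10.31, 10.38 and 10.22 in vector-4OHT cells, 11.22, 11.24 and 11.29 in vector+4OHT cells and 11.21, 11.29 and 11.25 in shARID1B+4OHT cells. The arrays of both groups with 4OHT overlapped. It rose by 0.95 upon senescence (limma, adjusted p = 2.77e-07) and differed by 0.0003 upon knockdown (adjusted p = 0.998), a pattern like that of SERPINE2. SERPINB4 rose by 0.98 (adjusted p = 0.00205, and 0.0973 by the methods' t-test after adjustment) but stayed at 4.96, under the table's median, and shares most of its sequence with SERPINB3, so its signal cannot be assigned with certainty. SERPINB1, an inhibitor of neutrophil proteases, fell by 0.62 (adjusted p = 3.15e-05). Upon knockdown SERPINB7 was at 8.15, 8.27 and 8.15 against 9.07, 9.17 and 9.19 in vector+4OHT cells, and fell by 0.95 (adjusted p = 5.93e-05). SERPINB9, an inhibitor of granzyme B, rose by 0.35 (adjusted p = 0.00179). Genes that share the 3-finger fold of uPAR were measured for 15 of 16 listed, with 1 higher and 2 lower upon senescence (14.9% and 17.6% of all genes). By limma 0 were called upon knockdown (15.7% of all genes), where 2 had an unadjusted p under 0.05. Those were LYPD3, higher by 0.17 (adjusted p = 0.0769) and called with dim genes left out, without shARID1B+4OHT replicate 1 and by the methods' t-test without adjustment, and LY6K, higher by 0.21 (adjusted p = 0.108) and called with array medians subtracted and without vector+4OHT replicate 1. CD59, an inhibitor of the complement attack complex, rose by 0.21 (adjusted p = 0.0068), LYPD6 fell by 0.35 (adjusted p = 0.00668, and 0.0502 by the methods' t-test after adjustment), and LY6K fell by 0.83 to 6.90 (adjusted p = 1.61e-05).

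Across these lists the median log2 change upon senescence stayed close to the -0.01 of all genes, apart from the 0.27 of the AP-1 and ETS factors. It was 0.01 for the plasminogen and clearance receptors, 0.04 for the partners of uPAR, 0.09 for the clade B serpins and 0.02 for the relatives of uPAR. Between knockdown and vector-4OHT cells 10 AP-1 and ETS factors were called higher and 1 lower, where 15.6% of all genes were called higher and 15.9% lower. In the same comparison 2 of the plasminogen and clearance receptors were higher and 3 lower, and 3 of the uPAR partners were higher and 1 lower. The clade B serpins and the uPAR relatives each had 3 called higher and 2 lower.

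Genes with the most similar profiles were sought among the 705 or 706 genes whose group means spanned at least 1 log2 unit and rose above the table's median. With n = 9 arrays that fall into groups, a Pearson correlation (r) mostly describes the step between cells with and without 4OHT, and is given as a description. PLAU was most like NFKBIZ (r = 0.998), an inducible NF-kB cofactor that stood at 7.23, 9.54 and 9.67 in vector-4OHT, vector+4OHT and shARID1B+4OHT cells, followed by the chemokine gene CCL20 (r = 0.997) and PTGS2 (r = 0.997), which encodes cyclooxygenase 2. PLAT was most like EREG (r = 0.9996), which encodes the growth factor epiregulin and stood at 10.09, 12.49 and 12.72, and then JUNB and SVIP (both r = 0.999). PLAUR was most like the immediate early gene IER3 (r = 0.998), at 11.57, 13.24 and 13.15, with the integrin gene ITGA2 and PRDM1 next (both r = 0.998). SERPINE2 had MFSD2A (r = 0.990), the chemokine gene CXCL1 (r = 0.990) and PLAT (r = 0.989) nearest among the genes searched. PLAUR, whose group means span less than 1 log2 unit and which was therefore not among them, was closer to SERPINE2 (r = 0.992). Between pairs of the 4 genes r ran from 0.982 for PLAU and SERPINE2 to 0.996 for PLAT and PLAUR.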

How the data were processed

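RNA of 9 samples was hybridized to Affymetrix arrays that cover whole transcripts, as the labelling text of the labels and the probe sets show, although the extraction text names an Illumina library kit. The deposited values are log2 expression, 1 per probe set and array, from 2.29 to 14.22. Per the submitters' processing notes, the authors used RMA (background correction, quantile normalization and probe summary), oligo and limma, with versions and genome build not given in the sources used here. Quantile normalization removes shifts common to all genes, and the number of arrays limits the precision.

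Of 33297 probe sets, 19460 carried 1 gene symbol, 1754 several and 12083 none. For 769 genes with several such probe sets the one with the highest mean was kept, leaving 18417 genes. One limma model (version 3.58.1, R 4.3.3, lmFit and eBayes, with group as its only term) covered all 9 arrays, with 2-sided tests and Benjamini-Hochberg adjustment over all genes in each comparison. With 3 arrays against 3, exact permutation gives no p under 0.1. The code was tested on simulated data. Genes were named where they had 1 of the 4 smallest adjusted p-values of their list in a comparison, or were among the 3 most similar to a member by Pearson's r. Others appear as partners of a named gene and were chosen with values seen. The members, lists and motifs were chosen with earlier results of these data known, and the motifs with the sequences in view. Promoter windows came from RefSeq GRCh38.p14 and found 4 of the 5 listed genes, of which 3 are used. PLAT has no window here. Alternatives were a block for the replicate number, a fit on the 6 arrays of a comparison alone, a filter on dim genes, a test of every probe set, averaged probe sets per gene, array medians subtracted, an intensity trend, the methods' t-test with and without adjustment, and each array left out in turn.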

Additional observations from a re-analysis of the deposited data

How the results depend on the processing

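In the senescence comparison and in that of knockdown with vector-4OHT cells, PLAU, PLAT, PLAUR and SERPINE2 kept their direction and their call under all 18 alternatives. The lowest log2 changes of the senescence comparison were 1.08, 1.06, 0.79 and 0.59. ARID1B stayed lower in knockdown cells, by -0.81 to -0.65. Upon knockdown, the PLAT difference of 0.0850 passed with an intensity trend (adjusted p = 0.0452) and by the methods' t-test without adjustment (p = 0.00578, an approximation that 3 arrays against 3 cannot give by exact permutation). The PLAUR difference turned to 0.0213 with array medians subtracted. With 1 array left out, it ran from -0.0298 to 0.0181, positive without vector+4OHT replicate 3, and that of SERPINE2 from -0.0236 to 0.0633, negative without vector+4OHT replicate 2. All genes called numbered 5996, 2895 and 5800. The methods' t-test after Benjamini-Hochberg adjustment called 3737 upon senescence and 1446 upon knockdown. With 1 array left out, the knockdown count ran from 1801 (without shARID1B+4OHT replicate 2) to 2817. Subtracting array medians moved the share called higher among genes called in knockdown against vector-4OHT cells from 49.4% to 62.3%. SERPINI2, dim and not called, changed sign with medians subtracted (0.0235 upon senescence, 0.0504 for knockdown against vector-4OHT cells) and with 1 array left out (-0.0347 to 0.0117, -0.0334 to 0.0130, and -0.0092 to 0.0108 upon knockdown), as did SERPINA5 (-0.0934 to 0.0575) and CD14 (-0.2077 to 0.0042) upon knockdown. Over all alternatives the other listed genes kept direction and call in 2006 cases, lost a call in 115, gained one in 35 and changed sign in 7. The cause was not tested.

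Deviations from the group means had r from -0.26 to 0.32 over 9 same-numbered pairs of arrays from different groups. Over 18 pairs of different numbers r ran from -0.33 to 0.34. Between the 2 groups with 4OHT the same-numbered pairs had r of 0.32, 0.08 and 0.07, and the others from -0.32 to 0.27. With 3 arrays a group these values cannot decide whether the numbers pair the samples, and the labels do not say. With the replicate number as a block, 5658, 2498 and 5437 genes were called, and no call of PLAU, PLAT, PLAUR or SERPINE2 changed. Among the listed genes chosen by the naming rule, the block ended the calls of A2M upon senescence, of CAV1, ITGAV, ELF1 and COL1A1 upon knockdown, and of A2M and CAV1 for knockdown against vector-4OHT cells.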
